A study of Homo sapiens with 8 samples.

Results

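PLS3, PPP1R12B, PALLD and ACTN1 are 4 genes of actin and myosin control, and the data described here are the transcription start sites inside them that differed between proliferating and senescent human lung fibroblasts. A site was taken when its midpoint lay within the annotated span of one of these genes or within 1 kb upstream. Of the 1249 sites in the 2 distinct deposited lists, 14 met this rule. The proliferating-only list gave 12 of its 400 sites and the senescent-only list gave 2 of its 849.

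The cells were IMR90, human lung fibroblasts, grown at low oxygen in all groups. The proliferating group had 3 PRO-cap libraries, replicate 1 at population doubling 23 and replicates A and B at 26. The senescent group also had 3, replicate 1 at population doubling 76 and replicates A and B at 67, and had reached replicative exhaustion by serial passage. PRO-cap captures the capped 5′ ends of RNA that engaged polymerases have just made, so a read marks a start of transcription. Further PRO-seq libraries at population doublings 20 and 76 were not analysed here. The lists give 1 fold per site, with no value per library, so nothing below has a spread between cultures and no test between the states was possible. In bulk cells, fewer cells using a start and less RNA per cell cannot be told apart.

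Stress fibres are bundles of actin filaments held together by crosslinkers and pulled by nonmuscle myosin. Plastin-3 (PLS3) bundles filaments, α-actinin-1 (ACTN1) crosslinks them at stress fibres and adhesions, and palladin (PALLD) is a scaffold that binds both actin and α-actinin. PPP1R12B encodes MYPT2, a targeting subunit of the phosphatase that removes phosphate from the myosin regulatory light chain and so relaxes contraction. Many genes of this system are known targets of SRF, a transcription factor that binds the CArG box (a pair of C, then a run of A or T, then a pair of G) and whose partners MRTFA and MRTFB are released when free actin falls.

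Sequences around the most-read sites of PLS3, PPP1R12B and PALLD are shown first. A CArG box lay in the central 200 bases of 5 of the 12 proliferating-only sites, spread over the 3 genes that had such sites. A box was held by 6.5% of all proliferating-only sites and at 7.27% of coding genes with such a site. Of windows of that size on the chromosomes of the genes studied, 1.21% held one. The box was searched after earlier results of these lists were known. All bases are the GRCh37 reference, written 5′ to 3′ on the strand of the gene, and the capitals in the first 3 runs mark the CArG box. The PLS3 run covers 2 overlapping sites centred on its bases 75 and 160, the PPP1R12B run 2 overlapping sites centred on bases 75 and 88, and the PALLD run 1 site centred on base 100.
PLS3, chrX:114849459-114849693 (+): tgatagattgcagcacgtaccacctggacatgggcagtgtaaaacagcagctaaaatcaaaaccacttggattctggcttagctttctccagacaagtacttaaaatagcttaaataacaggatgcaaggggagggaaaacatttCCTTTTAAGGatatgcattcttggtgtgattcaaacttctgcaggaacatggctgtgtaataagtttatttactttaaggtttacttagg
PPP1R12B, chr1:202474675-202474837 (+): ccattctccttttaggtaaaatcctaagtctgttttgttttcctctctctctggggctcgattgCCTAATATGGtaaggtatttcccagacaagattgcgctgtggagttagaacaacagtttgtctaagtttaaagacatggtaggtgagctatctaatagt
PALLD, chr4:169737713-169737912 (+): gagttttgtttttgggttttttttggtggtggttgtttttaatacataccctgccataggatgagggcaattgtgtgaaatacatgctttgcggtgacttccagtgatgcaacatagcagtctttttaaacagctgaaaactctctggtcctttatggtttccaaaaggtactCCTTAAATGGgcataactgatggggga

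The senescent-only sites, 1 in PALLD and 1 in ACTN1, had no CArG box in their central 200 bases. Only 0.589% of all senescent-only sites held one, so its absence does not set these sites apart. The ACTN1 site is shown as an example, with capitals on the 3 bases around its centre.
ACTN1, chr14:69351208-69351357 (-): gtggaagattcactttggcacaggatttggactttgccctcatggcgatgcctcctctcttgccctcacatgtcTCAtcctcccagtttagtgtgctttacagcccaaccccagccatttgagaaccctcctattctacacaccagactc

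A fold in these lists is the authors' ratio of one state over the other. The folds resolved into whole reads: numerator and denominator were each a read number times a step fixed for that state, with 1 added. A read was worth 39.4 in proliferating and 32.8 in senescent cells on the authors' scale. Reads below come from this decoding, and their 95% intervals are exact Poisson limits that cover counting error only. Where the other state had 0 reads, a fold is given against a floor of 3 reads per site, without counting error. The exact Poisson upper limit of 0 reads is 3.69, so these folds are not 95% lower limits. All these values chose the sites, whose folds lie above 10 by construction of the lists. They are therefore a description: the lowest fold among the 14 sites was 10.7, in PPP1R12B, and the lowest in the proliferating-only list was 10.04. No site lay near the edge of the rule for genes, as the nearest site outside was 75.7 kb from ACTN1 and farther from the others.

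PLS3 held internal start sites, of a strand not given by the lists, with reads in proliferating cells and none in senescent cells. Its 6 sites, numbered in genome order, had 22, 29, 251, 53, 24 and 24 reads in proliferating cells and 0 at each in senescent cells. The third site stood far above the other 5, with an interval of 221 to 284 reads that did not overlap any of theirs. Its deposited fold of 9883 ranked 3 of 400 in the list. Set against the floor of 3 reads it was 100.4-fold higher in proliferating cells, and the other 5 were 8.80- to 21.2-fold higher, counting error left out. At least 6 proliferating-only sites were held by 3 of 20098 protein-coding genes (0.0149%), a share given as background since the gene was chosen by such counts.

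The PLS3 sites stood together within 2747 bases, chrX:114848660-114851406, in a gene of 89.7 kb (chrX:114795501-114885181, + strand). Their centres were 53233 to 55830 bases into the gene, in intron 2 of the canonical transcript PLS3-202. The first of them also fell in a non-coding exon part of PLS3-205 and PLS3-206, both annotated as targets of nonsense-mediated decay. The nearest annotated PLS3 start, that of PLS3-204, was 4179 bases upstream of the first site and 6776 bases upstream of the last. Of 630 coded residues, 24 were encoded before the sites and 605 after them. The highest site and the fourth shared 65 of their 150 bases, so a read could count for both.

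PPP1R12B showed the same arrangement, a tight group of proliferating-only sites deep in an intron. Its 5 sites had 164, 148, 149, 27 and 33 reads in proliferating cells, and 0, 0, 0, 3 and 0 in senescent cells. The first 3 had overlapping intervals, from 125 to 191 reads over all 3, and ranked 4, 6 and 5 of 400 by fold. Set against the floor of 3 reads they were 65.6-, 59.2- and 59.6-fold higher in proliferating cells, counting error left out. The fourth was the weakest, at 10.8-fold (3.32 to 55.6, exact binomial limits). At least 5 proliferating-only sites were held by 7 of 20098 protein-coding genes (0.0348%), again background only.

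Sites 1 to 4 of PPP1R12B lay within intron 18 of the canonical transcript PPP1R12B-216, an intron of 62054 bases, with centres 156922 to 157484 bases into the gene (chr1:202317827-202561834, + strand). Sites 1 and 2 were centred 13 bases apart and shared 137 bases, so they may hold many of the same reads. The nearest annotated start of the gene, that of PPP1R12B-209, lay 8802 bases upstream of site 1. Of 982 coded residues, 830 were encoded before these sites and 152 after them. The gene is known to give a small subunit from its 3′ part besides MYPT2, and the next annotated start downstream, that of the coding transcript PPP1R12B-218, was 34219 bases from site 1. Site 5 stood 70868 bases from site 4. It lay in a non-coding exon part of PPP1R12B-219 and PPP1R12B-217, with 28 residues encoded downstream.

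The PPP1R12B cluster was the only place among the 14 sites with near-identical copies elsewhere in the assembly. Each of sites 1 to 4 had 2 copies on chromosome Y, at 96.6%, 95.3%, 86.2% and 96.7% identity. A copy of at least 90% identity over at least 90% of the site was found for 16 of all 1249 sites (1.28%), 3 of them here. How reads that match several places in the assembly were treated was not given in the sources used here. The part of such reads in the PPP1R12B values was not tested.

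**Figure D1:**
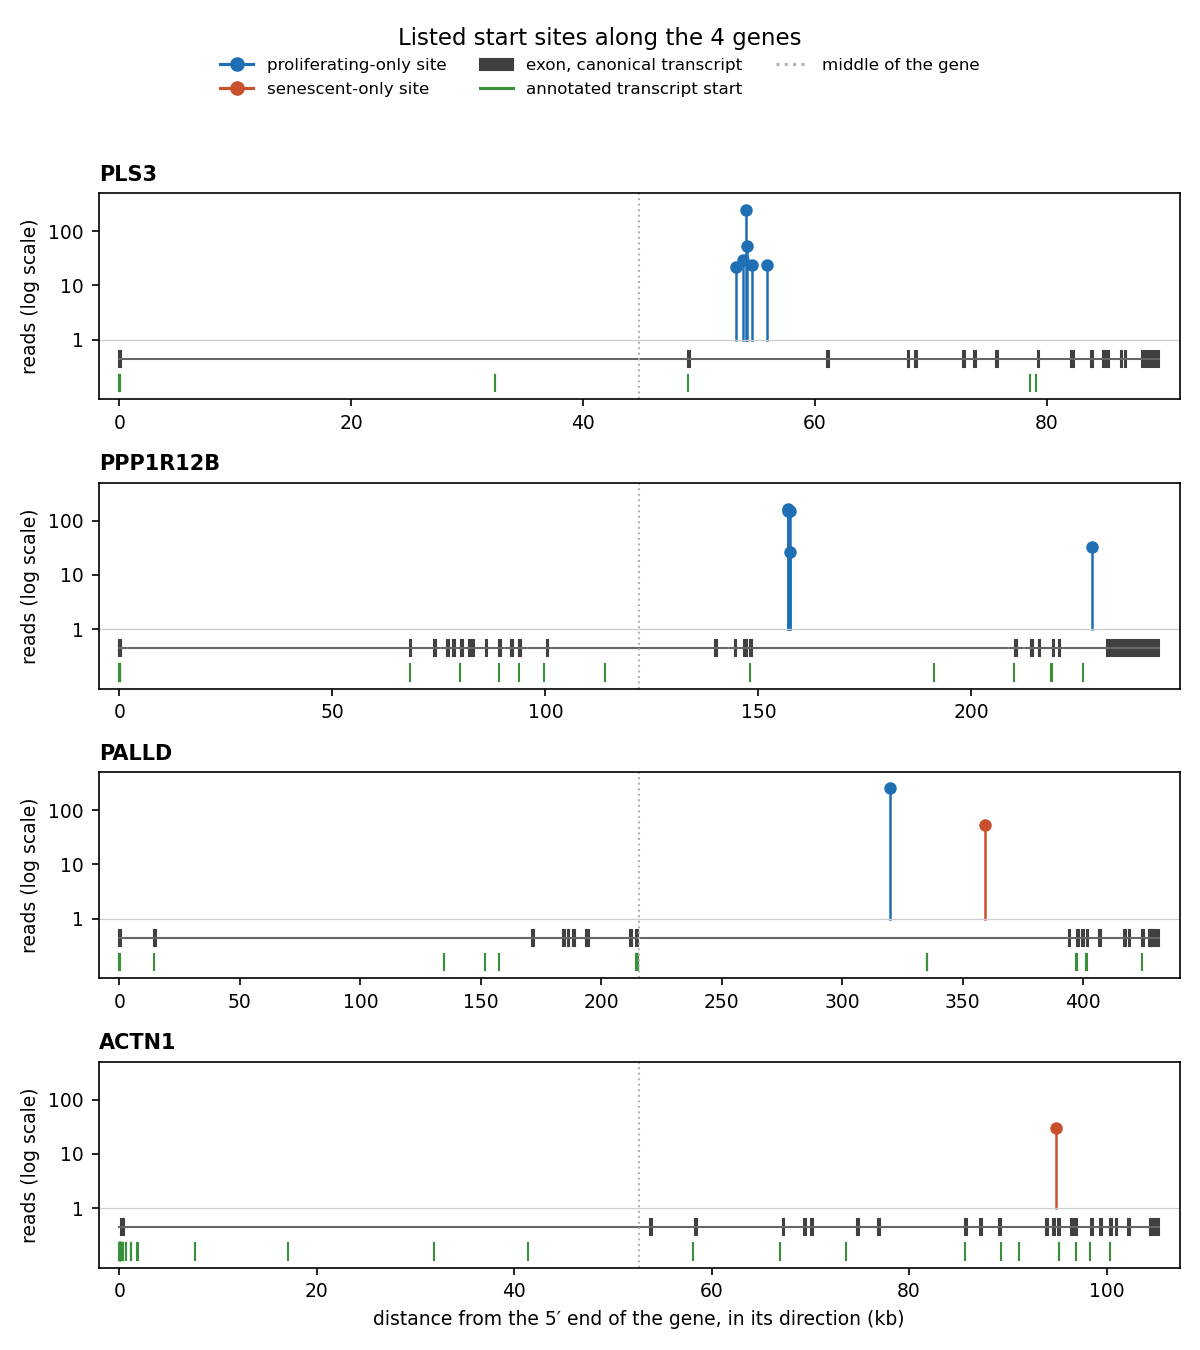
Sites along each gene, as distance from its 5′ end in kb, with the reads of the site's own state on a log axis; boxes are exons of the canonical transcript and green ticks annotated transcript starts. The sites of PLS3 and the first 4 of PPP1R12B stand as clusters, and all 14 sites lie past the dotted middle of their gene.

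PALLD held 1 site of each state, 39622 bases apart in the same intron. The proliferating-only site, chr4:169737738-169737887, had 255 proliferating reads (225 to 288) and 9 senescent reads, a ratio of 34.0 on the authors' scale (17.6 to 75.2, exact binomial limits). It had the most reads of the 14 sites, more than 98% of its list, but ranked 326 of 400 by fold because of the 9 reads. The senescent-only site had 53 reads (39.7 to 69.3) in senescent and 3 in proliferating cells, a ratio of 14.7 (4.77 to 73.7). Both sites thus had reads in both states, and the listed directions were opposite. A site of each list was held by 16 of 20098 protein-coding genes (0.0796%), and by 0.236% of those over 50 kb.

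The PALLD intron, the 10th of transcript PALLD-206, is 178998 bases long and holds the known inner start of the shorter palladin forms. The proliferating-only site lay 104502 bases downstream of the annotated start of PALLD-211 in this intron. The next annotated PALLD start, that of PALLD-202 at position 169753156, was 15344 bases downstream of the site. The senescent-only site lay 24239 bases downstream of the last annotated PALLD start in the intron, that of PALLD-219 at position 169753195. The 2 sites thus flanked the starts of PALLD-202 and PALLD-219, and neither was within 1 kb of them. Of 1123 coded residues, 654 were encoded before both sites and 468 after them. The senescent-only site lay in repeated sequence: 181 other places matched at least 80% of it at 80% identity or more, though 0 reached 90% for both.

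ACTN1, on the minus strand (chr14:69340845-69446157), held 1 senescent-only site. It had 30 reads (20.2 to 42.8) in senescent and 2 in proliferating cells, a ratio of 12.5 (3.17 to 108.0). Its fold of 12.4 ranked 786 of 849, near the low end of the list. The site was centred 262 bases upstream of the annotated start of ACTN1-207 at position 69351020, and was the only one of the 14 within 1 kb of any annotated transcript start. Counting only transcripts in the basic set of the annotation, 0 of 14 were. The site lay in intron 13 of ACTN1-203, which is 466 bases long, 94875 bases into the gene, with 416 of 914 residues encoded downstream. No proliferating-only site lay in ACTN1 (0) and no senescent-only site in PLS3 or PPP1R12B (0 in each).

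**Figure D2:**
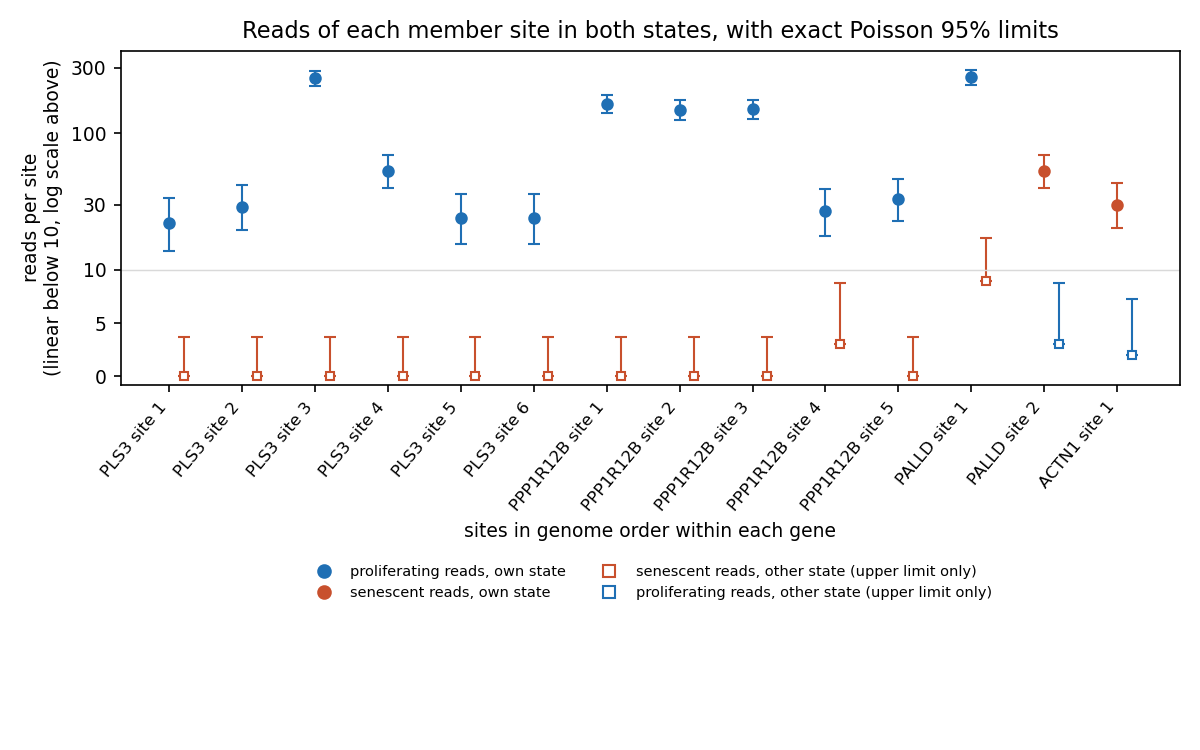
Reads of the 14 sites in genome order within each gene, with filled circles for the state the site is listed for and open squares for the other state; the axis is linear below 10 and logarithmic above, and bars are exact Poisson 95% limits. For the other state only the upper limit is drawn; it had 0 reads at 10 sites and 2 to 9 at the other 4.

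Several of the 14 sites were among the strongest of their list, and these reads also set the folds by which sites were listed. The 12 proliferating-only sites had a median of 43 reads, beside 22 over the 388 other sites of that list. Of these 12, 5 had more reads than 94.75% to 98% of the list. The senescent-only sites of PALLD and ACTN1 had 53 and 30 reads, beside a median of 32 over their list. All 14 lay past the middle of their gene, at a median of 64.3% of its length. Of all sites in 1 coding gene, 89.9% of the proliferating-only and 92.3% of the senescent-only lay past the middle. Another site of the same list lay within 10 kb of 10 of the 14 sites, and of 62.9% of all sites.

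The central 200 bases of the 14 sites had a median GC content of 41% (range 35.5% to 54%), against 47.2% and 45.5% over the proliferating-only and senescent-only lists. The highest was the ACTN1 site at 54%, and the 12 proliferating-only sites ranged from 35.5% to 45%. The median observed-to-expected ratio of CpG was 0.181, beside 0.247 and 0.186 over the lists, and 3 sites had no CpG. Each gene had RefSeq promoters of unlike GC content (300 bases around a start, GRCh38.p14). The richest reached 63.3% in PLS3, 61.7% in PPP1R12B, 69.3% in PALLD and 71% in ACTN1, above all 14 sites. The poorest, at 37.7% in PLS3, 41% in PPP1R12B, 46.7% in PALLD and 49.3% in ACTN1, were within the range of all 14 sites. That range passed 45% only at the ACTN1 site. In PALLD the poorest promoter lay above both of its sites, each at 40.5%.

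The centre of a listed site carried a mark of initiation. Polymerase II tends to start on a purine that follows a pyrimidine, and the 75th of the 150 bases of a site was such a step, on one strand or the other, in 86.2% of senescent-only and 86% of proliferating-only sites. With 5 bases left out on each side of the centre, the median over the other positions was 43.9% and 41.8%. Of the 14 sites, 13 had the step (92.9%, Wilson 95% interval 68.5% to 98.7%), and 57.1% and 50% had one at the bases beside the centre. The strand column of the lists reads + at every site and gives no direction. Read from the step alone, 6 of the 14 centres matched a start on the strand of the gene and 7 a start on the opposite strand, close to the 43.3% and 42.5% over all sites in 1 coding gene. The highest PLS3 centre, with CA on the opposite strand, and its overlapping neighbour 85 bases downstream, with TG on the strand of the gene, faced away from each other by this reading. So did PPP1R12B sites 1 and 2. The step is a reading of sequence, and the direction of transcription was not measured by the values used here. The proliferating-only PALLD site was the one without the step.

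CArG boxes were searched because of the known control of actin genes by SRF, on both strands and without mismatch, after earlier results of these lists were known. The box was present in the central 200 bases of 5 of the 14 sites (35.7%, Wilson 95% interval 16.3% to 61.2%), all proliferating-only. These 5 sites held 3 separate boxes, 1 in each of PLS3, PPP1R12B and PALLD, because the overlapping pairs share theirs. In PLS3 the box CCTTTTAAGG, chrX:114849604-114849613, was centred 75.5 bases from the centre of the highest site and 9.5 from that of its neighbour. In PPP1R12B the box CCTAATATGG, chr1:202474739-202474748, was centred 5.5 and 18.5 bases from the centres of sites 1 and 2, with 164 and 148 reads. Site 3, with 149 reads, had no box in its central 200 bases. In PALLD the box CCTTAAATGG, chr4:169737886-169737895, was centred 78.5 bases from the site. Each box thus lay in the central 200 bases of the site with the most reads of its gene. The PLS3 and PALLD boxes crossed the edge of that 150-base site. Within 150 bases, 21.4% of the 14 sites held a box.

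CArG boxes were also unequal between the whole lists. They lay in 26 of 400 proliferating-only sites (6.5%, 4.47% to 9.35%) and in 5 of 849 senescent-only sites (0.589%, 0.252% to 1.37%). Without the sites of these genes the proliferating-only share was 5.41% (3.57% to 8.13%), and its interval still lay above that of the senescent-only list. Counting regions of sites joined within 500 bases, the shares were 6.88% (4.45% to 10.5%) and 0.787% (0.337% to 1.83%). Of 200-base windows of chromosomes 1, 4, 14 and X, 1.21% held a box. By gene, 16 of 220 coding genes with a proliferating-only site (7.27%) and 6 of 411 with a senescent-only site (1.46%) had a box at a site. The intervals of the lists do not overlap, cover counting of sites only, and the difference was not tested over cultures. A match is a sequence and shows no binding by SRF.

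**Figure D3:**
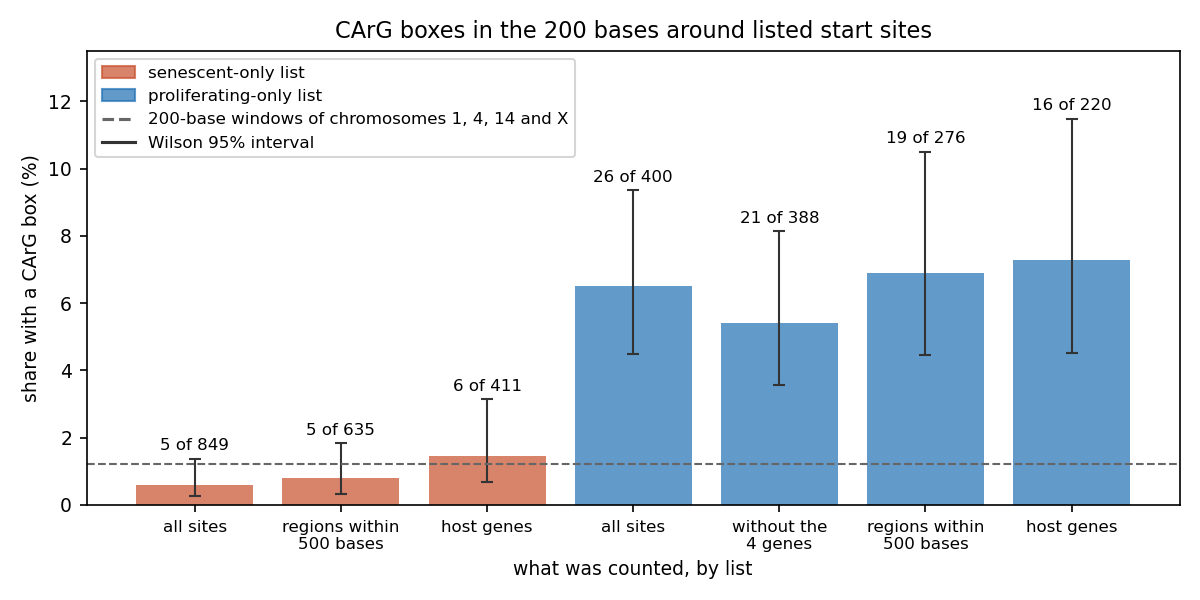
Share of all sites, of regions joined within 500 bases and of host genes, and for the proliferating-only list also of sites without those of the 4 genes, with a CArG box in the 200 bases around a site, by list, with Wilson 95% intervals and the counts above each bar; the dashed line is the share of 200-base windows of the chromosomes of the 4 genes. The proliferating-only bars stand at 5.41% to 7.27% and the senescent-only bars at 0.589% to 1.46%.

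Of the other motifs, an AP-1 motif (TGACTCA or TGAGTCA, either strand) lay at 2 of the 14 sites (14.3%), beside 10% of proliferating-only and 18.4% of senescent-only sites and 2.99% of windows. Both were the outer sites of the PLS3 cluster, the first with the motif 82 bases from its centre and the last with it 8 bases away. The last is shown with the motif in capitals.
PLS3, chrX:114851257-114851406 (+): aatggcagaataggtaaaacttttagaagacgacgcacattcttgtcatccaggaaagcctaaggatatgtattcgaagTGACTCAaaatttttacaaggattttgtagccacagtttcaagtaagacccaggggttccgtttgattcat
A TATA box (TATAAA or TATATA) also lay at 2 sites, beside 14.5% of all sites and 27.5% of windows. One was PPP1R12B site 3, with matches centred 32.5 and 69.5 bases from its centre, on the side toward the 5′ end of the gene, and the other the senescent-only PALLD site. The step at the centre of PPP1R12B site 3 reads as a start on the opposite strand, for which these matches lie downstream. The TEAD motif (GGAATG) lay at 1 site, PPP1R12B site 3, beside 18.1% of all sites and 10.6% of windows.

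**Figure D4:**
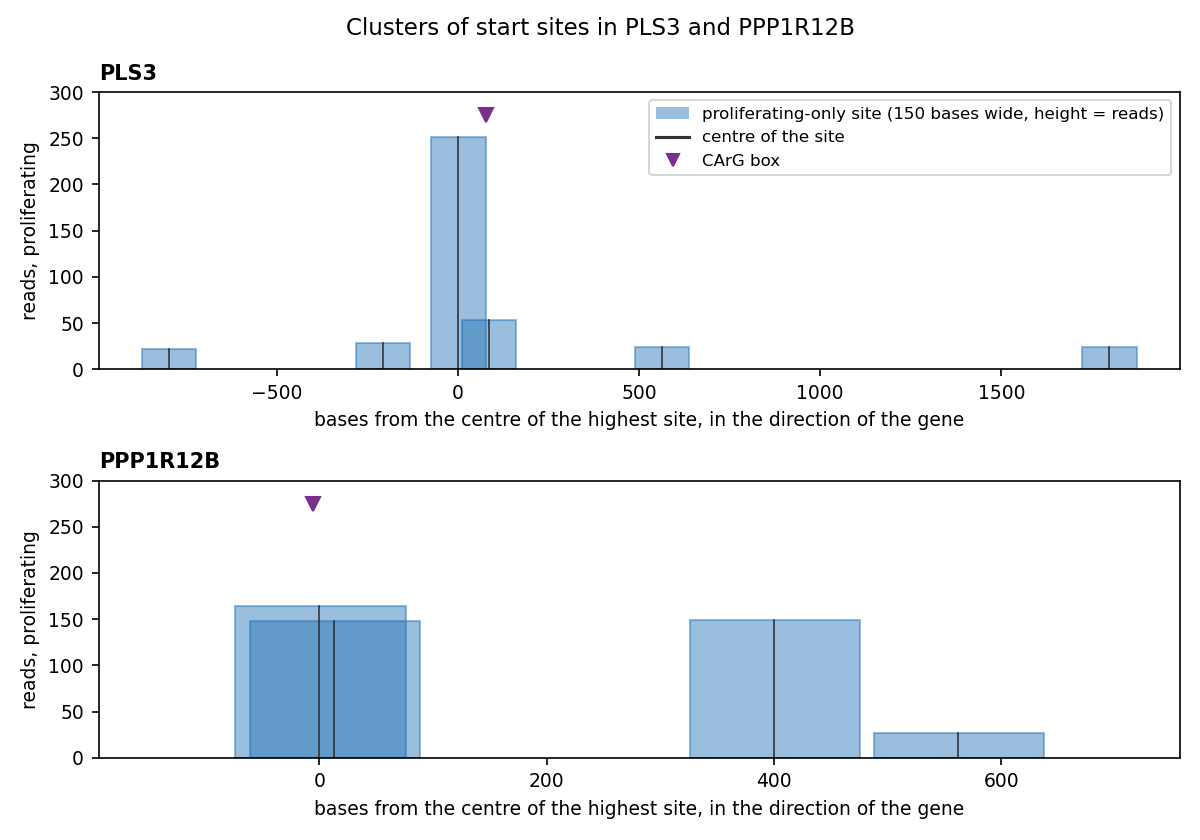
The PLS3 cluster and the first 4 sites of PPP1R12B, as bases from the centre of the highest site against reads in proliferating cells; each block is 1 site of 150 bases, darker where sites overlap, and the triangle marks the CArG box. The PLS3 box crosses the downstream edge of the site with 251 reads and lies within the site with 53, and the PPP1R12B box lies within the sites with 164 and 148 reads.

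Most other genes of the actin and myosin system held no listed site, as was so for most protein-coding genes. Of 99 genes in 10 groups, 6 held a senescent-only site (6.06%) and 4 a proliferating-only site (4.04%), the 4 genes above included. The background was 2.04% and 1.09% of all 20098 protein-coding genes, and 5.21% and 2.43% of the 6778 over 50 kb. Without the 4 genes, 4 of 95 held a senescent-only site (4.21%) and 1 a proliferating-only site (1.05%), and over 50 kb the counts were 4 of 53 (7.55%) and 0. The list and its members were chosen with results of these data known, so the counts with the 4 genes included carry no weight.

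The further gene with a proliferating-only site was PDLIM3, a LIM-domain partner of α-actinin, with 8 proliferating reads and 0 senescent reads. The further genes with senescent-only sites were SYNPO2, FMNL2, GSN and MRTFA. SYNPO2, an actin-bundling synaptopodin, had 2 sites with 31 and 52 reads in senescent and 0 in proliferating cells. FMNL2, a formin that elongates filaments, had 2 overlapping sites with 159 and 82 reads and 2 proliferating reads at each. GSN, which encodes the severing protein gelsolin, had 1 with 36 reads and 2 proliferating reads. MRTFA, the SRF partner, had 3 with 7, 21 and 17 senescent reads and 0 proliferating reads. No site lay in the 8 myosin genes, the 12 thin filament genes, the 8 focal adhesion genes or the 4 actin genes (0 in each).

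By counts of sites and of regions joined within 10 kb in each list, 4 counts over 2 states, PLS3 had 1 exact match among coding genes, PLXNA2, a semaphorin receptor, with deposited folds of 24.5 to 1497. PPP1R12B matched LRMDA, with folds of 277 to 2088. PALLD matched 3 genes, CELF4, BCAS3 and FRMD4A, each with 1 site of each list. ACTN1 matched 216 genes, of which TRAPPC12, POC1B and ITPKB were closest to it in length.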

How the data were processed

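PRO-cap was made from proliferating and senescent IMR90 cells. The authors deposited 4 site lists, of which 2 are distinct; each is also held, with the same content, under replicate 1 of a PRO-cap group. Each site has 1 fold, which is a ratio that the authors computed of one state over the other before they deposited the lists. Site calling, pooling of libraries and cutoffs: not given in the sources used here. Tools named, without their roles, per the submitters' processing notes are HOMER, bedtools 2.27.1-65, cutadapt 2.10, SAMtools 1.1 and BWA 0.7.10, and hg19 is among the builds. GRCh37 and GENCODE 44 lifted to it share those coordinates (0 of 1249 sites past a chromosome end).

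Each fold was decoded into whole reads (tolerance 1e-06 of a read); all 400 and 849 had 1 solution, and 0.02% and 0.01% of 10000 random folds were matched. The decoding was tested on simulated folds made with the same formula, which checks its arithmetic and not whether a step is 1 read. Depth per library is not known. Members, gene lists and motifs were chosen with earlier results of these data known. Named are the 4 genes, every further gene of the actin and myosin list with a site, and the genes with equal site counts closest in length. Of 18 cell type markers, 17 matched the annotation and 0 held a site, so the lists give no level to check the cell type. Copies were sought with blastn 2.17.0 (80% identity over 80% of a site). Python 3.11.15, scipy 1.17.1 and pysam 0.24.0 were used. Alternatives varied the flank, joining, thresholds, windows and annotation.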

Additional observations from a re-analysis of the deposited data

How the results depend on the processing

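No paired analysis was possible because each site has a single deposited fold and none per library, and for the same reason no replicate could be left out. Of 74 alternative values, 57 stayed within 1.5 times the count or within the interval of the value, and 17 did not. Joining sites within 500 bases left 2 regions in PLS3 and 2 in PPP1R12B, and joining within 10 kb left 1 and 2. Requiring 0 reads from the other state, or a fold in the upper 50%, left 0 sites in PALLD for either list and 0 in ACTN1. Without reads in the other state, 2 genes of the actin and myosin list held a senescent-only site. With basic transcripts only, 0% of the sites lay within 1 kb of an annotated start. The step at the centre was present at 57.1% and 50% of the sites 1 base before and after it. These shifts and all CArG alternatives were added after the data were examined. CArG shares in 400 bases were 42.9% for the 14 sites, 9.5% for proliferating-only and 1.41% for senescent-only sites. In 150 bases they were 21.4%, 4.5% and 0.236%. The causes were not tested beyond what each alternative removes. Counting limits the weaker sites most: 22 to 33 reads supported 7 of the 14.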

Other observations

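CArG boxes lay at proliferating-only sites of other protein-coding genes, of which those with 2 or more such sites are named, a choice made after their values were seen. PCSK7, a proprotein convertase, had a box at 4 of its 5 sites, and TENM4, an adhesion receptor, at 3 of 7. BCL9, a cofactor of Wnt signalling, had one at 2 of 2, and SH3BGRL at 2 of 4. The bases of the PPP1R12B box recurred at 3 listed sites outside the 4 genes and those of the PLS3 box at 2, while the PALLD box recurred at 0.

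In RefSeq promoters of 300 bases (GRCh38.p14), 454 of 35116 held a CArG box (1.29%). In the actin and myosin list 10 of 154 promoters, of 89 matched genes, held one (6.49%). Of 12 promoters of PLS3, PPP1R12B, PALLD and ACTN1, 1 held a box, and it belonged to ACTN1, whose listed site had none.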
